A study of Homo sapiens with 15 samples.

Results

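The genes described here are 10 components of the cell cycle switch that palbociclib blocks. They comprise the D-type cyclins CCND1, CCND2 and CCND3, their kinases CDK4 and CDK6, the kinase CDK2 with its E-type cyclins CCNE1 and CCNE2, and the retinoblastoma family genes RB1 and RBL1. They were chosen by name, from their place in the pathway, by a rule that used no measured value. Earlier results of these data were known when they were chosen. All 10 were found in both deposited tables, among 59428 genes listed for IMR90 and 59412 listed for Huh7.

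D-type cyclins bind CDK4 and CDK6 when growth signals reach the cell, and the complexes phosphorylate the retinoblastoma protein. Phosphorylated retinoblastoma protein releases E2F transcription factors, which switch on genes for DNA synthesis, among them the E-type cyclins that activate CDK2. In senescence the switch is held off by CDK inhibitors, and palbociclib holds it off by inhibiting CDK4 and CDK6 directly. Palbociclib acts on the kinase proteins, so RNA levels do not report their activity.

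The study asked whether THBD, the gene of the thrombin receptor thrombomodulin, is needed as cells become senescent. IMR90 is a lung fibroblast line, and its 9 libraries were labelled as senescent through HRAS G12V, an activated form of the RAS oncogene. Of these, 3 held a short hairpin RNA with no target (control) and 6 one against THBD, in sets of 3 that the titles number 1 and 2 without saying what the number means. Huh7 is a hepatocyte-derived carcinoma line, and all 6 of its libraries came from cells made senescent with palbociclib, 3 with the control hairpin and 3 with a hairpin against THBD. Every Huh7 group therefore carried the drug, and libraries of cells without palbociclib or without HRAS G12V were not analysed here. The growth protocol also describes long passage of IMR90 to replicative senescence, and whether it applies to these libraries is not given. Whether replicates came from separate cultures is not in the labels, so the p-values cover the spread among these libraries alone, and that may be technical. In bulk RNA a lower share of cycling cells and less RNA per cell cannot be told apart.

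The targeted gene was measured first. In IMR90, THBD stood at 16.5, 18.8 and 20 counts per 1000000 counts of the library (CPM) in the control, at 39.4, 36.6 and 37.3 CPM in the libraries labelled set 1, and at 10.5, 11.5 and 11.4 CPM in set 2. Against their label, the set 1 libraries thus had more THBD than the control (log2 fold change 1.09, SE 0.0764, edgeR adjusted p = 1.2e-20), and those of set 2 had less (−0.81, SE 0.0905, edgeR adjusted p = 1.5e-12). In Huh7 it gave 0, 0 and 6 counts in the control and 0 in each shTHBD library, too few to check the label. The library that is replicate 3 of set 2 carries a description naming Huh7, while its other labels name IMR-90. Its hepatocyte markers were as low as in the other set 2 libraries (summed level of 9 genes 11.5 to 13.2 CPM, with ALB, APOB, TTR, FGB and HNF4A at 0 in all 3), and it was kept.

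Library totals ran from 18256773 to 21509229 counts in IMR90, from 19328182 to 20020683 counts in the Huh7 control and from 22479132 to 25236178 counts in Huh7 shTHBD. The 8 fibroblast markers, led by VIM and COL1A1, summed to 6226 to 6317 CPM in the IMR90 control, 4449 to 4557 CPM in set 1 and 12457 to 12630 CPM in set 2. In Huh7 the 9 hepatocyte markers summed to 7092 to 7341 CPM in the control and 4952 to 5134 CPM in shTHBD, none at 0, and the fibroblast list to 1059 to 1107 CPM and 1681 to 1743 CPM. In IMR90 the hepatocyte list summed to 15.9 to 17.9 CPM in the control and 132 to 142 CPM in set 1, where SERPINA1 alone made up 134 CPM and APOB, TTR and FGB were at 0. The 5 leukocyte markers summed to 3.95 to 4.61 CPM in the IMR90 control, 11.9 to 13.3 CPM in set 1, 0.993 to 1.52 CPM in set 2, 9.78 to 10.4 CPM in the Huh7 control and 8.51 to 9.21 CPM in Huh7 shTHBD. The 5 endothelial markers summed to 3.91 to 15.7 CPM over all 15 libraries. The 5 epithelial markers summed to 1159 to 1253 CPM in the Huh7 control and 814 to 825 CPM in Huh7 shTHBD, against 26.4 to 65.3 CPM in IMR90. Mitochondrial transcripts took 5.43 to 5.48% of counts in the IMR90 control, 5.82 to 5.98% in set 1, 6.38 to 6.58% in set 2, 7.26 to 8.35% in the Huh7 control and 7.83 to 9.94% in Huh7 shTHBD. Huh7 shTHBD replicate 3 stood apart from its group, with 9.94% mitochondrial counts against 8.04 and 7.83%, and a chi-square per degree of freedom of 9.91 and 12.4 against the other two, which gave 4.32 between them. Without it 8 members were still called in Huh7, CCND1 was at −1.43 and CDK2 at −2.23 on the log2 scale (−1.36 and −2.32 with it), and 24 of 25 E2F target genes were called lower. These shifts moved with the groups, and their part in the results below was not tested.

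Promoter windows of 3 members are printed before the values. They show the palbociclib targets CDK6 and CDK4, which moved in opposite directions in set 1, and RBL1, whose window holds words that E2F factors bind. Each window runs 5′ to 3′ on the gene's strand, from 250 bases before to 50 bases after a start listed by RefSeq on GRCh38.p14, and words found are in capitals. CDK6 is at chr7:92836524-92836823 (minus strand), CDK4 at chr12:57752261-57752560 (minus strand) and RBL1 at chr20:37095948-37096247 (minus strand).
CDK6: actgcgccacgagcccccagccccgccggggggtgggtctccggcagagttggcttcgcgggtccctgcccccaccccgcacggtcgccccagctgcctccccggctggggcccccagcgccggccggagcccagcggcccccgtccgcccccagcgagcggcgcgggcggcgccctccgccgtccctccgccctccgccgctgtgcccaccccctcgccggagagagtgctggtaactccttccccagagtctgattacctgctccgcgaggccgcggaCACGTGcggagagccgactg
CDK4: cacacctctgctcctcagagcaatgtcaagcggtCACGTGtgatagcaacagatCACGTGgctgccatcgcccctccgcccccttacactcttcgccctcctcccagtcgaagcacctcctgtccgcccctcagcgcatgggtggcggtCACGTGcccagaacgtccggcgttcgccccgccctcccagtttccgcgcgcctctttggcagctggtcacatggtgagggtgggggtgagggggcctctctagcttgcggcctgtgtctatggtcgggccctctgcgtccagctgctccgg
RBL1: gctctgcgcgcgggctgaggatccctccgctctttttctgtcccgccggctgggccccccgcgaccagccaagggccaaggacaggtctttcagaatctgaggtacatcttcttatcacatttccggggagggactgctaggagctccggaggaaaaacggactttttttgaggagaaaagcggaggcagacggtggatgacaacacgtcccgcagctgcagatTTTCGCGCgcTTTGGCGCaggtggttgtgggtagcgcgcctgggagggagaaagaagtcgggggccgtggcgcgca

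Of the 10 members, 6 had entries in the promoter table, with 9 windows in all, and CCND1, CCND2, CDK2 and CCNE2 had none. The words searched on both strands were the E-box CACGTG, the E2F words TTTGGCGC, TTTCCCGC, TTTCGCGC and TTTGCCGC, the AP-1 word TGANTCA and the CHR word TTTGAA, none of which contains another. The CDK4 window held 3 copies of CACGTG, starting at bases −216, −196 and −101 from the listed start. That listed start lies inside the CDK4 gene model of the tables, not at its 5′ end. Of 35116 promoter windows, 7.26% held at least 1 such word and 0.094% held at least 3. The printed CDK6 window held 1 copy, starting at base 31 of the transcript. Another CDK6 window listed, at chr7:92833910-92834209, held none of the words searched. In the RBL1 window the words TTTCGCGC and TTTGGCGC began at bases −26 and −16. At least 1 E2F word was present in 3.31% of all windows and at least 2 in 0.145%. The windows of CCND3 and CCNE1 held none of the words searched, and the AP-1 word in the RB1 window lay at a start inside the gene. AP-1 words were present in 7.71% of windows and CHR words in 15.2%. A match describes letters only.

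Between-gene levels are given as transcripts per 1000000 transcripts (TPM), computed from the counts and the exon lengths in the tables. In the IMR90 control CCND1 was far above the rest at 1497 TPM, and it ranked 65 of 26334 genes with a count. CDK4 followed at 89.1 TPM, CCND3 at 62.8, RB1 at 25.6, CDK6 at 24.3, CDK2 at 17.9, CCNE1 at 17.3, CCND2 at 5.84, RBL1 at 1.42 and CCNE2 at 0.572 TPM. Libraries of neighbours in that order did not overlap, except RB1 with CDK6 and CDK2 with CCNE1. In the Huh7 control CCND1 again led, at 405 TPM (rank 250 of 30331), followed by CDK4 at 103, CDK2 at 36.1, RB1 at 30, CDK6 at 27, CCNE1 at 20.3, CCND3 at 9.35, RBL1 at 3.64, CCNE2 at 1 and CCND2 at 0.0163 TPM. No neighbours in the Huh7 control order overlapped. The order changed with the groups: CDK6 moved up to follow CCND1 in set 1 (75.8 TPM against 64.8 TPM for CDK4), CDK2 moved below CCND2 in set 2 (4.96 TPM against 14 TPM), and CDK2 moved below CCNE1 in Huh7 shTHBD (7.44 TPM against 15.9 TPM). By TPM CCND1 stayed first in all 5 groups. In Huh7 shTHBD at 161 TPM it was close to CDK4 at 131 TPM, without overlap. Reads over exon bases shared with another gene were by default not counted, while TPM used the full length. That can understate CDK4 (44.2% shared with TSPAN31) and CCNE2 (37.0% with INTS8) most. The order of CDK4 against CCND1 in Huh7 shTHBD, and against CDK6 in set 1, can therefore turn on the length used. The tables were made separately and 5 of the 10 genes have different exon models in them, so levels set across the lines carry no test. On the CPM scale, which is not corrected for length, CDK6 with its long transcript stood above CDK4 in both controls, although in the Huh7 control their libraries overlapped.

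**Figure D1:**
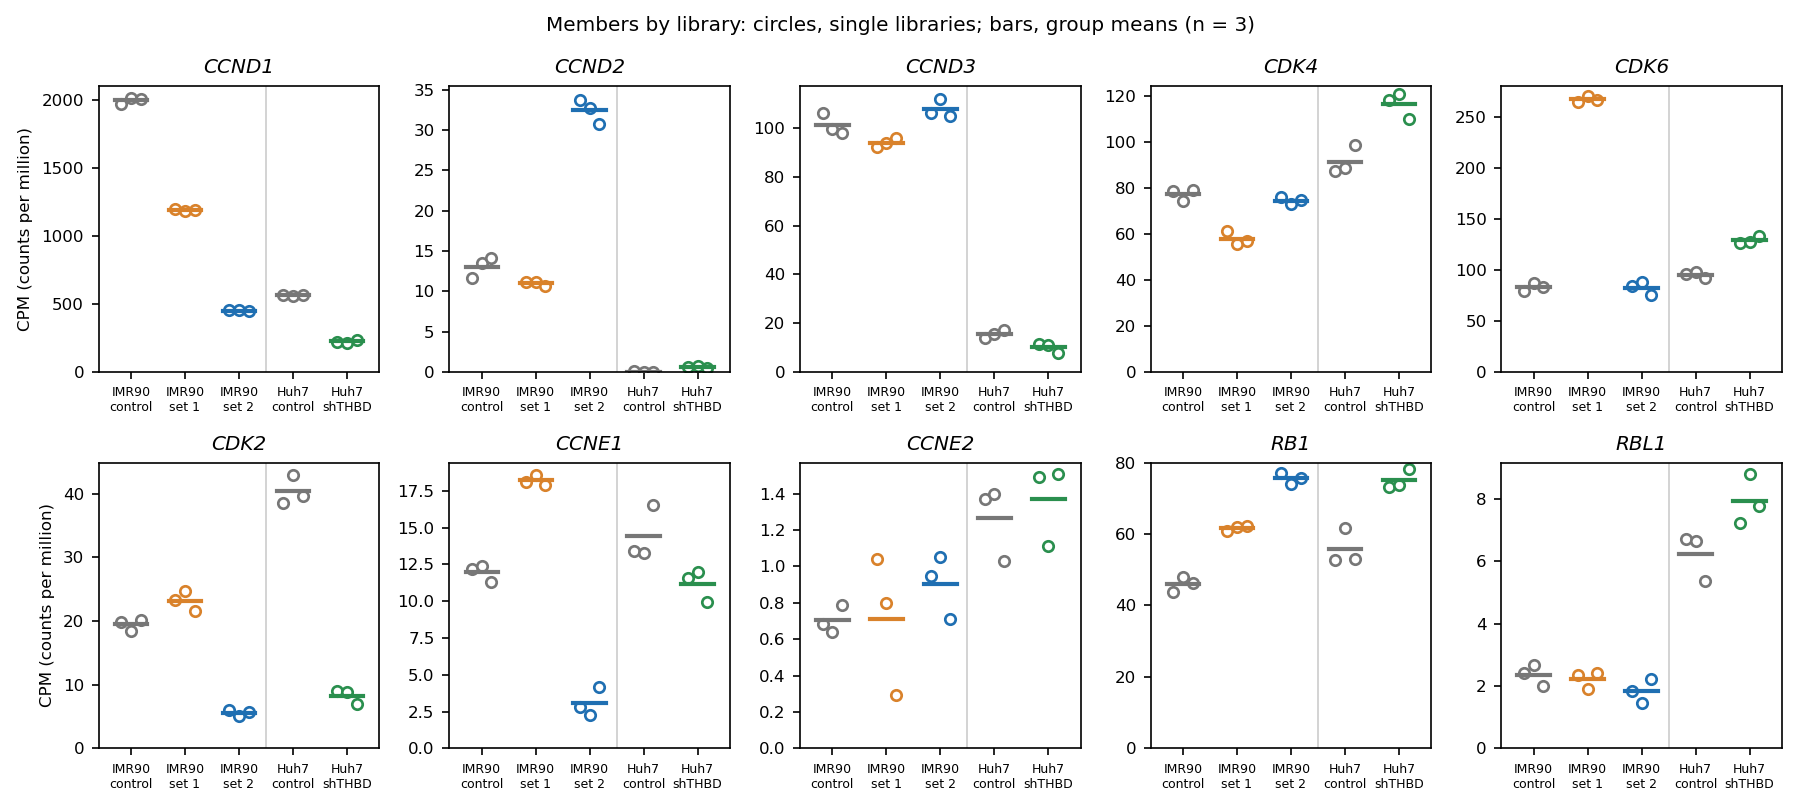
CPM (linear axis from 0) of each of the 10 genes in every library. Circles are single libraries, bars are means of 3 libraries, and the vertical line separates the IMR90 from the Huh7 table. CCND1 falls from about 1996 to 1190 and 451 CPM across the IMR90 groups, CDK6 stands at 268 CPM in set 1 alone, and CDK2 is low in set 2 (5.6 CPM) and in Huh7 shTHBD (8.26 CPM).

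Changes were tested with edgeR on all genes of a table, and a gene was called when its Benjamini-Hochberg adjusted p was under 0.05. All 10 members passed the filter on low counts in the main fit of each line and in the main joint fit, though not under every alternative. In the libraries labelled set 1, 6 of the 10 were called (4 higher, 2 lower), where 53.8% of all 15411 genes tested were called. In set 2, 7 were called (2 higher, 5 lower), against 67.3% of all genes, and 6 without replicate 3 of set 2, whose description names Huh7. Between the sets 7 were called, against 69.5%. In Huh7, 8 were called (4 higher, 4 lower), against 53.1% of 17474 genes. The 8 include CCND2, which had 2, 0 and 0 counts in the Huh7 control and passed the filter only through the group where it is high, so that its call was not free to go either way. In IMR90 the members were called about as often as genes at large. In a joint fit of both lines, the effect in Huh7 differed from that in set 1 for 7 members (2 higher, 5 lower), against 47.5% of 16862 genes (23.6% higher, 23.9% lower), and from that in set 2 for 8 (6 higher, 2 lower), against 44% of genes (22.8% higher, 21.2% lower). Their median absolute log2 fold change was 0.33 in set 1, 0.53 in set 2 and 0.41 in Huh7, where all genes had 0.29, 0.45 and 0.41. Between the sets it was 0.91, against 0.48 for all genes. At least 2-fold changes were called for 1 member in set 1 (CDK6), 4 in set 2 (CCND1, CCND2, CDK2 and CCNE1), 5 between the sets (the same 4 and CDK6) and 3 in Huh7 (CCND1, CCND2 and CDK2). All genes reached a called change of that size in 3.79% (higher) and 4.33% (lower) of cases in set 1, 7.96% and 9.79% in set 2, 10.8% and 10.3% between the sets, and 5.27% and 8.37% in Huh7. Libraries of the groups compared did not overlap for 8 members in set 1 (59.4% of all genes), 5 in set 2 (70%), 8 between the sets (72.3%) and 9 in Huh7 (58.8%). Set 1 and set 2 were compared with the same 3 control libraries.

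**Figure D2:**
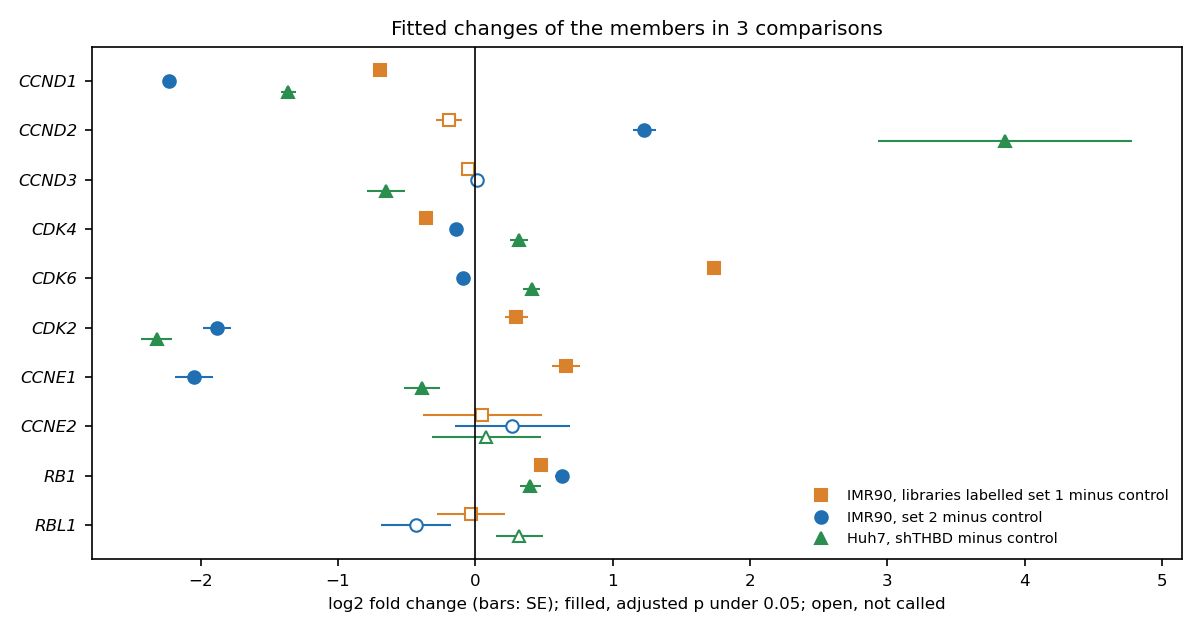
Log2 fold change against control (x axis; bars, SE) of the 10 genes in set 1 (squares), set 2 (circles) and Huh7 (triangles). Filled symbols are called at adjusted p under 0.05. CCND1 lies below 0 and RB1 above 0 in all 3, while CDK2 and CCNE1 lie above 0 in set 1 and below 0 in set 2 and Huh7. The fitted value of CCND2 in Huh7 (3.86) rests on 2 counts in the control.

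The D-type cyclins connect growth signals to CDK4 and CDK6, and CCND1 supplied most of their RNA in every group. In IMR90, CCND1 stood at 1971, 2012 and 2003 CPM in the control, 1199, 1184 and 1188 CPM in set 1, and 452, 454 and 445 CPM in set 2. The 3 groups were well apart and no libraries overlapped. CCND1 fell 1.61-fold in set 1 (log2 −0.69, SE 0.0191, edgeR adjusted p = 1.3e-43) and 4.69-fold in set 2 (−2.23, SE 0.0204, edgeR adjusted p = 8.3e-75). Set 1 lay 2.91-fold above set 2 (1.54, edgeR adjusted p = 7.3e-65). In Huh7 CCND1 stood at 568, 558 and 564 CPM in the control and 222, 215 and 234 CPM in shTHBD. It fell 2.57-fold (−1.36, SE 0.0567, edgeR adjusted p = 1.0e-19), again with no overlap. CCND1 was the single member called lower in set 1, set 2 and Huh7, where 6.58% of 12645 genes tested in both lines were called lower in all 3. Its model (chr11:69641156-69654474 in the IMR90 table, plus strand, 5 exon blocks) shares 10.4% of its length with LTO1 on the other strand. LTO1 was at 26.3 CPM in the IMR90 control, 20.5 CPM in set 1 and 36.6 CPM in set 2, so it fell with CCND1 in set 1 (−0.30, edgeR adjusted p = 6.0e-04) and rose in set 2 while CCND1 fell (0.40, edgeR adjusted p = 1.9e-06). In Huh7 it was not called (−0.19, edgeR adjusted p = 0.104).

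CCND2, a D-type cyclin with the same partners, moved the other way in set 2. It stood at 11.6, 13.5 and 14.1 CPM in the IMR90 control and 33.8, 32.8 and 30.8 CPM in set 2. That was a 2.34-fold rise (log2 1.23, SE 0.0846, edgeR adjusted p = 1.5e-21) without overlap. The set 1 libraries, at 11.2, 11.2 and 10.7 CPM, lay below every control library but were not called (−0.19, edgeR adjusted p = 0.0938), and without control replicate 1 they were (−0.27, edgeR adjusted p = 0.0273). They were also called with upper-quartile scaling (−0.22, edgeR adjusted p = 0.0483). The antisense gene CCND2-AS1 overlaps 2.0% of CCND2 in the IMR90 table. It had a mean of 0.0873 CPM in the control, 0 in set 1 and 0.921 CPM in set 2, and rose in set 2 (edgeR adjusted p = 2.5e-05). In Huh7 CCND2 gave 2, 0 and 0 counts in the control and 14, 17 and 11 counts in shTHBD, so it passed the filter only through the shTHBD libraries. The ratio relative to library totals was 17.3, with a 95% exact counting interval from 4.49 to 147 that covers counting error only. The call (edgeR adjusted p = 6.4e-04) thus concerns a gene close to the limit of detection, at a mean of 0.581 CPM in shTHBD.

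CCND3, the remaining D-type cyclin, was not called in IMR90 with TMM scaling. It stood at 106, 99.4 and 97.9 CPM in the control, 92.2, 93.8 and 95.9 CPM in set 1 and 106, 112 and 105 CPM in set 2, and neither set was called (−0.05, edgeR adjusted p = 0.294, and 0.01, edgeR adjusted p = 0.888). With scaling by library totals alone it was called lower in set 1 (−0.11) and higher in set 2 (0.09), and that scaling moved the median of all genes by −0.06 and 0.08. In Huh7 it fell 1.57-fold, from 14, 15.6 and 17.2 CPM to 11.6, 10.9 and 7.83 CPM (−0.65, SE 0.139, edgeR adjusted p = 1.7e-04).

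Summed over the 3 genes, D-type cyclin RNA was 1565 ± 17.2 TPM (SD, n = 3) in the IMR90 control, 928 ± 10.9 TPM in set 1 and 404 ± 6.79 TPM in set 2. In Huh7 it was 415 ± 3.38 TPM in the control and 168 ± 3.38 TPM in shTHBD. The share of CCND1 in that sum was 95.6% ± 0.18 in the IMR90 control, 93.4% ± 0.13 in set 1 and 80.6% ± 0.36 in set 2. CCND3 made up 4.01%, 6.09% and 15.9% of it, and CCND2 0.373%, 0.516% and 3.46%. In Huh7 the CCND1 share was 97.7% ± 0.23 and 96.2% ± 0.84. CCND1 thus remained the main D-type cyclin transcript in every library, with its lowest share (80.2%) in a set 2 library. These shares are descriptions without a test.

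CDK4 and CDK6 are the kinases that palbociclib inhibits, and CDK6 showed the largest change of the pair in any comparison with control, in set 1. CDK6 stood at 79.7, 86.8 and 83.5 CPM in the IMR90 control and at 265, 271 and 267 CPM in set 1. It rose 3.34-fold (log2 1.74, SE 0.0376, edgeR adjusted p = 3.5e-50), the largest rise of a member in set 1, where it ranked 200 from the top among 15411 genes. In set 2 its libraries, at 84.2, 88.6 and 75.2 CPM, overlapped the control. The set 2 value was called at the edge of the threshold (−0.09, edgeR adjusted p = 0.0446). That call was lost with upper-quartile scaling (−0.03, edgeR adjusted p = 0.604), with the DESeq2 test (DESeq2 adjusted p = 0.0726), with a fit of the 2 groups alone (edgeR adjusted p = 0.0635), and without control replicate 2 (−0.07), control replicate 3 (−0.10) or set 2 replicate 3 (−0.03). Set 1 stood 3.56-fold above set 2 (1.83, edgeR adjusted p = 3.1e-52). In Huh7 CDK6 rose 1.33-fold, from 95.9, 97.9 and 92.3 CPM to 127, 128 and 133 CPM (0.41, SE 0.0639, edgeR adjusted p = 1.6e-06).

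CDK4 fell in set 1, where CDK6 rose. It stood at 78.6, 74.1 and 78.9 CPM in the IMR90 control and fell 1.29-fold in set 1, to 61.2, 55.6 and 56.7 CPM (log2 −0.36, SE 0.0467, edgeR adjusted p = 3.8e-10). The set 2 libraries, at 75.8, 73.1 and 74.5 CPM, overlapped the control. They were called lower (−0.14, edgeR adjusted p = 0.00671), a call lost with upper-quartile scaling (−0.07, edgeR adjusted p = 0.177). In Huh7 it rose 1.25-fold, from 87.3, 88.4 and 98.5 CPM to 118, 121 and 110 CPM (0.32, SE 0.0651, edgeR adjusted p = 9.3e-05). CDK4 (chr12:57747727-57756013, minus strand, 10 exon blocks) shares 44.2% of its exon length with TSPAN31 on the opposite strand. The kit and the options in the IMR90 header do not mark strand, so reads there cannot be told apart and were by default not counted. TSPAN31 did not follow CDK4: it was not called in set 1 (0.00, edgeR adjusted p = 0.982) and fell in Huh7 (−0.30, edgeR adjusted p = 0.00558).

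The balance between both kinases differed by group. CDK6 made up 21.4% ± 1.3 of the summed CDK4 and CDK6 TPM in the IMR90 control (SD, n = 3), 53.9% ± 1.5 in set 1 and 21.9% ± 1.6 in set 2. In Huh7 it made up 20.9% ± 1.5 in the control and 22% ± 1.3 in shTHBD. CDK6 exceeded CDK4 in every set 1 library on this scale and in no other group. CDK4 shares 44.2% of its exon length with TSPAN31, where reads were by default not counted, while TPM used the full length. Its level can thus be understated, so which kinase is higher in set 1 depends on the length used. The shares and sums here carry the same limit. The sum of both was 113 ± 2.38 TPM in the IMR90 control, 141 ± 3.53 TPM in set 1, 106 ± 2.38 TPM in set 2, 130 ± 7.03 TPM in the Huh7 control and 168 ± 8.78 TPM in Huh7 shTHBD.

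**Figure D3:**
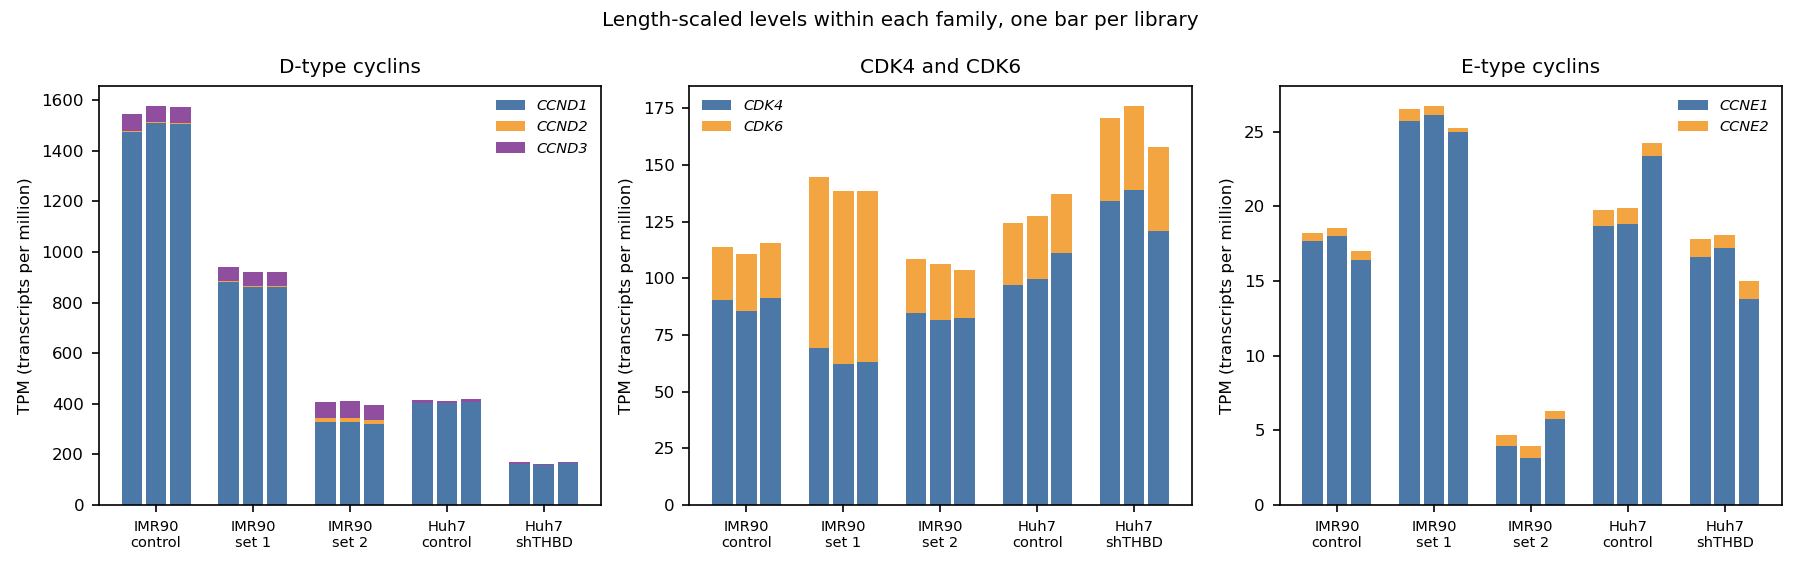
TPM of the D-type cyclins, of CDK4 and CDK6, and of the E-type cyclins, stacked, with 1 bar per library (3 per group) on a linear axis from 0. CCND1 makes up most of every D-type bar. CDK6 makes up 53.9% of the kinase bar in set 1 and 20.9 to 22% elsewhere. The E-type bar is lowest in set 2 (4.99 TPM). CDK4 and CCNE2 can be understated, since reads over exon bases shared with other genes were by default not counted.

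CDK2 drives entry into S phase with the E-type cyclins, and it fell in set 2 and in Huh7. In IMR90 it stood at 19.9, 18.5 and 20.1 CPM in the control, 23.3, 24.7 and 21.5 CPM in set 1, and 6.06, 5.07 and 5.66 CPM in set 2. The 3 groups did not overlap, with set 1 highest and set 2 lowest. CDK2 rose 1.23-fold in set 1 (log2 0.30, SE 0.0843, edgeR adjusted p = 0.00165) and fell 3.69-fold in set 2 (−1.88, SE 0.105, edgeR adjusted p = 2.7e-26). Set 1 lay 4.55-fold above set 2 (2.19, edgeR adjusted p = 1.9e-30). In Huh7 it stood at 38.6, 43 and 39.6 CPM in the control and 9.01, 8.88 and 6.9 CPM in shTHBD, a 4.98-fold fall (−2.32, SE 0.11, edgeR adjusted p = 3.5e-18). That was the largest fall of a member in Huh7, where it ranked 192 from the lowest of 17474 genes. CDK2 lies on chr12:55966781-55972789 (plus strand, 6 exon blocks), and PMEL, which overlaps 2.3% of it, was not called in any comparison (−0.06 in Huh7, edgeR adjusted p = 0.85).

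CCNE1, the main E-type cyclin here, moved with CDK2 in sign. It stood at 12.2, 12.4 and 11.3 CPM in the IMR90 control, 18.1, 18.6 and 17.9 CPM in set 1 and 2.79, 2.25 and 4.14 CPM in set 2, with no overlap between groups. It rose 1.58-fold in set 1 (log2 0.66, SE 0.104, edgeR adjusted p = 1.1e-07) and fell 4.14-fold in set 2 (−2.05, SE 0.139, edgeR adjusted p = 6.8e-22). The distance between the sets, 6.55-fold (2.71, edgeR adjusted p = 9.2e-30), was the largest of any member. In Huh7 its 13.4, 13.3 and 16.5 CPM in the control stood against 11.6, 12 and 9.92 CPM in shTHBD. That 1.31-fold fall was called (−0.39, SE 0.132, edgeR adjusted p = 0.0127), but not without control replicate 3 (−0.30, edgeR adjusted p = 0.106). CCNE1 lies on chr19:29811991-29824312 (plus strand, 11 exon blocks).

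CCNE2, the second E-type cyclin, was scarcely detected. It gave 6 to 20 counts in each IMR90 library and 20 to 36 counts in each Huh7 library, and groups overlapped in every comparison. Its log2 fold changes were 0.05 (SE 0.434), 0.27 (SE 0.419) and 0.08 (SE 0.395) in set 1, set 2 and Huh7, with edgeR adjusted p of 0.939, 0.591 and 0.88. A change of the size seen for CCNE1 in Huh7 would not be detectable at this depth. INTS8 on the opposite strand shares 37.0% of the CCNE2 exon length and was not called in any of these comparisons (−0.11, −0.09 and 0.14, edgeR adjusted p from 0.152 to 0.228). Reads over the shared bases were by default not counted, which can lower the CCNE2 counts and TPM and raise the share of CCNE1. The summed E-type RNA was 17.9 ± 0.786 TPM in the IMR90 control (SD, n = 3), 26.2 ± 0.803 TPM in set 1, 4.99 ± 1.21 TPM in set 2, 21.3 ± 2.55 TPM in the Huh7 control and 17 ± 1.74 TPM in Huh7 shTHBD. CCNE1 made up 84.9 to 97.9% of it in the group means.

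RB1, which encodes the retinoblastoma protein that CDK4 and CDK6 phosphorylate, rose in all 3 comparisons. In IMR90 it stood at 43.8, 48.1 and 46.4 CPM in the control, 60.8, 61.9 and 62.3 CPM in set 1 and 77, 74.1 and 75.6 CPM in set 2. No groups overlapped. The rise was 1.39-fold in set 1 (log2 0.48, SE 0.0499, edgeR adjusted p = 3.8e-13) and 1.55-fold in set 2 (0.63, SE 0.049, edgeR adjusted p = 5.0e-19), and the sets differed (−0.15, edgeR adjusted p = 0.00294). In Huh7 it rose 1.32-fold, from 52.6, 61.6 and 53.1 CPM to 73.3, 73.6 and 78.3 CPM (0.40, SE 0.0763, edgeR adjusted p = 3.9e-05). RB1 was the single member called higher in set 1, set 2 and Huh7, where 6.83% of 12645 genes were. Its effect was not found to differ between Huh7 and set 1 (difference −0.06, SE 0.0888, edgeR adjusted p = 0.638) or set 2 (−0.20, SE 0.0883, edgeR adjusted p = 0.0609), and the latter was called with DESeq2 (−0.22, DESeq2 adjusted p = 0.0419) and upper-quartile scaling (−0.24, edgeR adjusted p = 0.0211). RB1 lies on chr13:48303744-48599436 in the IMR90 table (plus strand, 30 exon blocks).

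RBL1, which encodes the related pocket protein p107, had few counts in IMR90. It stood at 2.41, 2.68 and 2 CPM in the control, 2.36, 1.9 and 2.4 CPM in set 1 and 1.84, 1.46 and 2.23 CPM in set 2, and the groups overlapped. It was not called in set 1 (log2 −0.03, SE 0.245, edgeR adjusted p = 0.925) or set 2 (−0.43, SE 0.253, edgeR adjusted p = 0.124). In Huh7 its 7.22, 8.8 and 7.78 CPM in shTHBD lay above its 6.71, 6.64 and 5.38 CPM in the control without overlap. That difference missed the threshold (0.32, SE 0.17, edgeR adjusted p = 0.119), where 58.8% of all genes had libraries that did not overlap. RB1 made up 94.8 to 97.4% of the summed RB1 and RBL1 TPM in the IMR90 groups and 89.2 to 89.7% in the Huh7 groups.

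The other genes of the pathway were read from 7 lists, given by counts and medians without a test of the list. Median log2 fold changes over all genes were 0.00 in set 1, 0.01 in set 2 and 0.00 in Huh7. Called higher were 27.3%, 33.2% and 25.9% of all genes, and called lower 26.5%, 34.1% and 27.3%.

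The E2F target genes of S phase, which the release of E2F switches on, were mostly lower in Huh7 shTHBD. Of 25 tested, 24 were called lower and 1 higher, with a median log2 fold change of −1.52. MCM5, a subunit of the replicative helicase, fell 8.24-fold (42.5 ± 3.08 to 5.24 ± 1.64 CPM, SD, n = 3, edgeR adjusted p = 7.0e-19). UHRF1, which maintains DNA methylation at replication, fell 7.34-fold (edgeR adjusted p = 5.2e-11), and the replication initiation factor MCM10 fell 6.13-fold (edgeR adjusted p = 8.5e-12). The gene called higher, GMNN, the inhibitor of origin licensing, was picked out after its value was seen (0.24, edgeR adjusted p = 0.0255), and its call was lost without control replicate 1 or 2, without shTHBD replicate 3, and with no filter on low counts. In the joint fit the Huh7 effect was lower than that in set 1 for 23 of the 25, and lower than that in set 2 for 20 of the 25.

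In set 2, 8 of 24 E2F targets were called lower and 4 higher (median −0.15). RRM2, a subunit of ribonucleotide reductase, fell 3.82-fold (6.67 ± 0.415 to 1.85 ± 0.82 CPM, edgeR adjusted p = 1.3e-15), MCM4 fell 2.56-fold and MCM5 1.68-fold. PCNA, RRM1 and TYMS were among the 4 that rose (0.69, 0.51 and 0.76), and were picked out after their values were seen, with MCM6 as the remaining gene (0.23). In the libraries labelled set 1, 5 of 24 were called higher and 2 lower (median 0.17). RRM2 rose there 1.93-fold (0.94, edgeR adjusted p = 4.0e-09) and MCM5 1.46-fold, while MCM4 fell 1.31-fold. The balance turned to 3 higher and 5 lower with library totals. It was 4 higher and 4 lower with upper-quartile scaling, and 5 higher and 4 lower with 10 counts required in every library. The 2 falls became 1 without set 1 replicate 3 and 4 without set 1 replicate 2. RRM2 stood 7.35-fold higher in set 1 than in set 2 (2.88, edgeR adjusted p = 8.6e-26).

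The cyclins and CDKs of S phase and mitosis fell in Huh7, where 5 of 5 were called lower (median −2.06). CCNB2 fell 5.39-fold, CCNB1 4.24-fold (32.7 ± 0.685 to 7.86 ± 1.92 CPM, edgeR adjusted p = 1.9e-15) and CDK1, the mitotic kinase, 4.18-fold. In IMR90 CDK1 was too low to be tested (0.195 to 0.38 CPM in the group means). Of the other 4, CCNB1 rose in set 1 (1.56-fold, edgeR adjusted p = 1.5e-06). CCNF was called higher in set 2 (0.24, edgeR adjusted p = 0.0484), a call lost without any of 8 libraries in turn and with the DESeq2 test.

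Of the RB family and E2F factors beyond the members, 4 of 11 were called lower and 2 higher in Huh7 (median −0.17). E2F1, an activator whose own gene is an E2F target, fell 4.18-fold (38.8 ± 1.27 to 9.47 ± 1.23 CPM, edgeR adjusted p = 7.7e-17), E2F6, a repressor, fell 1.52-fold, and E2F3 rose 1.44-fold. Of the 4, E2F2 and E2F7 were low (3.54 and 1.16 CPM in the control), and with 10 counts required in every library 2 falls were left. In set 2, 5 of 9 were called lower and 2 higher (median −0.33), with E2F1 at 7.77 ± 0.684 CPM in the control and 2.91 ± 0.641 CPM in set 2 (2.82-fold lower, edgeR adjusted p = 2.7e-13). E2F6 fell 1.9-fold and TFDP2, a dimerization partner of E2F factors, rose 2.23-fold. In set 1, 4 of 9 were called higher and the other 5 were not called (median 0.02). E2F5, E2F6 and E2F3 rose there 1.78-fold, 1.42-fold and 1.38-fold, and E2F1 was not called (−0.07, edgeR adjusted p = 0.676).

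CDK inhibitors bind cyclin-CDK complexes or the kinases alone. They were called higher for 4 of 7 in set 1, 4 of 7 in set 2 and 4 of 6 in Huh7. The medians were 0.54, 0.54 and 0.76. The set 1 count was 3 with upper-quartile scaling, library totals or no filter, and without control replicate 1 or 2. It was 5 with 10 counts required in every library. The smallest rise called in set 1, named after its value was seen, was CDKN2B (0.10, edgeR adjusted p = 0.0319). CDKN1A, the p53-induced inhibitor, stood at 1152 ± 1.53 CPM in the IMR90 control, 1949 ± 6.21 CPM in set 1 (1.76-fold higher, edgeR adjusted p = 2.3e-49) and 1990 ± 17.6 CPM in set 2 (1.63-fold higher, edgeR adjusted p = 3.5e-46). CDKN2D, an inhibitor of CDK4 and CDK6, rose 1.45-fold in set 1 (edgeR adjusted p = 0.00112), and CDKN2A, whose product p16 inhibits the same kinases, rose 1.45-fold in set 2 (111 ± 1.48 to 170 ± 15.6 CPM, edgeR adjusted p = 9.4e-20). CDKN1B, an inhibitor of CDK2 complexes, rose 1.39-fold in set 1 and 2.59-fold in set 2 (15.4 ± 1.04 to 42.2 ± 2.39 CPM, edgeR adjusted p = 1.3e-26). In Huh7 CDKN1C rose 2.13-fold, CDKN2B, a direct inhibitor of CDK4 and CDK6, 1.81-fold (161 ± 3.21 to 297 ± 20.2 CPM, edgeR adjusted p = 1.9e-14) and CDKN2D 1.77-fold. The single gene called lower in Huh7 was CDKN1A, named after its value was seen, at 7.13 CPM in the control and 4.98 CPM in shTHBD (−0.55, edgeR adjusted p = 0.0146), and that call was lost without control replicate 1 or shTHBD replicate 3.

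Regulators of cyclin-CDK activity and cyclin turnover were called higher for 10 of 19 and lower for 4 in set 2 (median 0.13). SKP2, the ubiquitin ligase subunit that marks CDKN1B for destruction, rose 4.77-fold there (8.6 ± 0.889 to 43.3 ± 2.01 CPM, edgeR adjusted p = 7.0e-36). FBXW7, the ligase subunit that marks cyclin E for destruction, rose 2.73-fold (12.7 ± 1.85 to 37 ± 1.77 CPM, edgeR adjusted p = 4.9e-25), and the CDK-activating kinase CDK7 rose 1.62-fold. In set 1, 9 of 19 were called higher and 2 lower (median 0.18), with SKP2 up 1.96-fold, the phosphatase gene CDC25A 1.67-fold and WEE1, an inhibitory kinase, 1.46-fold. The 2 lower, CUL4B and DDB1 (−0.22 and −0.07), were named after their values were seen, and 1 of them was lost without control replicate 1 or 3 or set 1 replicate 2 or 3. CDC25A stood 6.36-fold higher in set 1 than in set 2 (2.67, edgeR adjusted p = 5.7e-20). In Huh7, 6 of 20 were called higher and 10 lower (median −0.06). PKMYT1 fell 6.67-fold, CDC25C 5.54-fold and CKS1B, a CDK-binding cofactor of SKP2, 3.47-fold (124 ± 2.35 to 36.5 ± 3.52 CPM, edgeR adjusted p = 3.8e-20).

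Genes of the DREAM and MuvB complexes, which repress or activate cell cycle genes, were called lower for 4 of 7 and higher for 2 in Huh7 (median −0.36). The activators MYBL2 (184 ± 2.1 to 26.6 ± 2.33 CPM, 7.05-fold, edgeR adjusted p = 3.1e-25) and FOXM1 (5.76-fold, edgeR adjusted p = 9.3e-15) fell. RBBP4, a histone-binding subunit, rose 1.52-fold, and without control replicate 3 there was 1 rise in place of 2. In set 2 LIN52 rose 1.62-fold, and LIN54 was called lower (−0.30, edgeR adjusted p = 0.0204) with FOXM1 (−1.48, from 1.48 to 0.564 CPM). The count of falls dropped to 0 without control replicate 3 and to 1 without set 2 replicate 2 or 3. The single rise became 2 without control replicate 3, any set 1 library or set 2 replicate 2. In set 1 LIN9 was called, at 1.99 CPM in the control and 3.12 CPM in set 1 (0.70, edgeR adjusted p = 0.00788), and there were 3 rises without control replicate 3 and 2 without set 1 replicate 2 or 3 or set 2 replicate 2.

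Inducers of D-type cyclins, the transcription factors and coactivators that raise their transcription, were called higher for 10 of 10 in set 1 (median 0.45). CCND1 fell in those same libraries. With 1 library left out, 8 to 10 inducers were called higher in set 1. The smallest rises there, named after their values were seen, were CTNNB1 (0.08) and NFKB1 (0.16). ETS1 rose 3.03-fold (108 ± 1.88 to 316 ± 5.99 CPM, edgeR adjusted p = 2.5e-52), FOSL1, an AP-1 subunit, 1.76-fold and MYC 1.43-fold. In set 2, 5 of 10 were called higher and 3 lower (median 0.12). ETS1 rose 2.36-fold and EGR1 1.44-fold, while NFKB1 fell 1.99-fold (63.7 ± 3.88 to 34 ± 0.872 CPM, edgeR adjusted p = 1.3e-26). In Huh7, 4 were called higher and 3 lower (median −0.09), with ETS1 up 1.81-fold, JUN up 1.65-fold and NFKB1 down 1.69-fold.

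**Figure D4:**
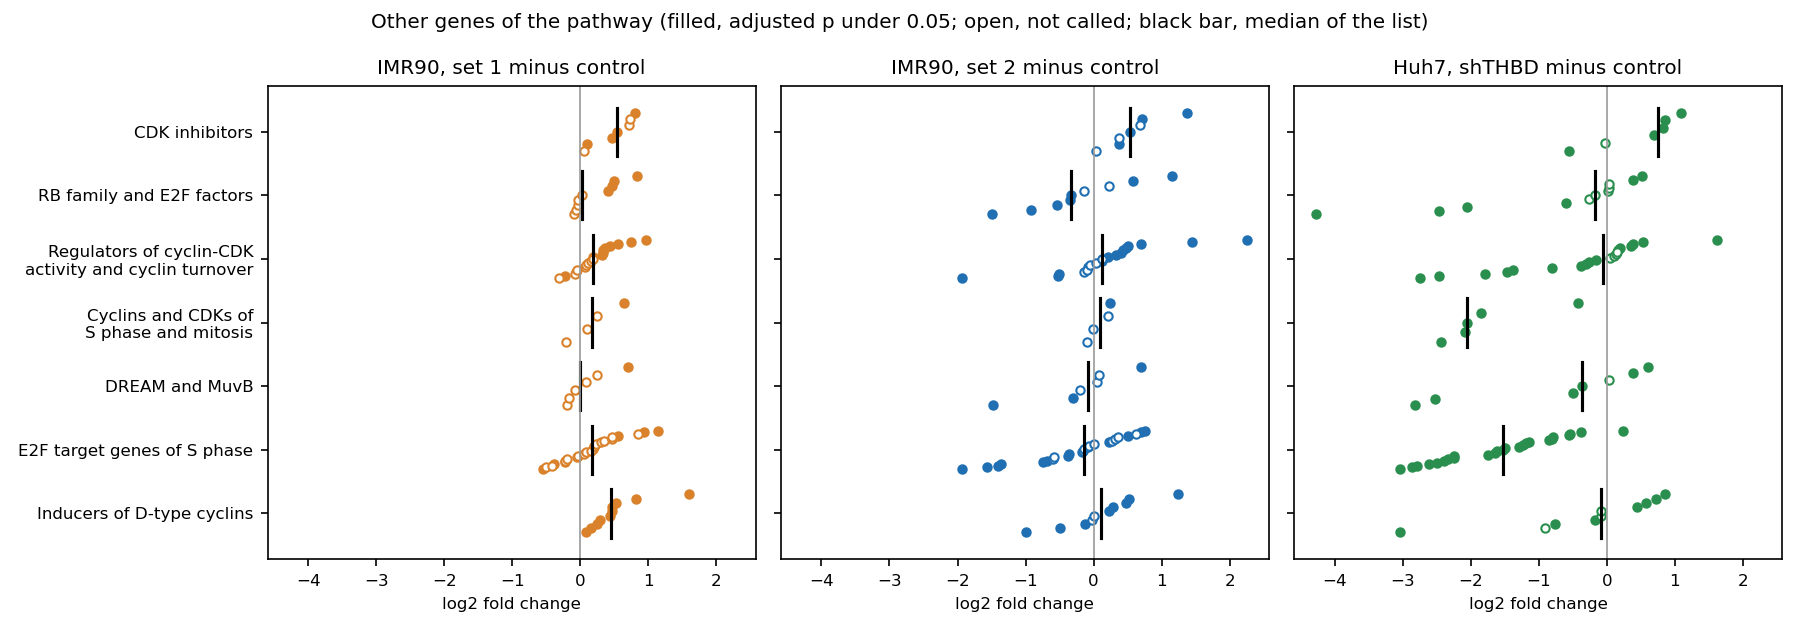
Log2 fold change against control (x axis) of every tested gene of the 7 lists, 1 point per gene in order of its value, in set 1, set 2 and Huh7. Filled points are called at adjusted p under 0.05 and black bars are list medians. Of the 25 E2F target genes, 24 lie to the left of 0 in Huh7 (median −1.52) and GMNN to the right, while they lie on both sides of it in set 1 (0.17) and set 2 (−0.15).

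The genes whose pattern lay closest to a member were sought among 8126 genes, by Euclidean distance over the log2 fold changes in set 1, set 2 and Huh7. For CDK2 (0.30, −1.88 and −2.32) the nearest were IGBP1 (0.19, −1.96 and −2.13, distance 0.24), KCTD20 (0.03, −1.84 and −2.29, distance 0.28) and TXNRD1 (0.42, −2.01 and −2.66, distance 0.39). The rule also picked CCND2, through a fitted Huh7 value that rests on 2 control counts and ran from 3.33 to 6.70 with 1 library left out (without shTHBD replicate 1 or 2 the gene did not pass the filter), and no neighbours are given for it.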

How the data were processed

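RNA-seq counts per gene were analysed for 15 libraries, 9 of IMR90 and 6 of Huh7. The authors deposited raw counts per gene with exon models and lengths. Reads were trimmed with fastp, aligned with STAR to GRCh38 and counted with featureCounts, per the submitters' processing notes. For IMR90 the version was featureCounts 2.0.1 with GENCODE 38 and no strand option, per the file headers; for Huh7 neither is stated in the sources used here. The kit, NEB Next Ultra RNA per the labels' protocols, does not mark strand, and reads over overlapping genes were by default not counted.

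From the counts, counts per 1000000 counts of the library (CPM) and TPM (with the deposited exon lengths) were computed. Tests used edgeR 4.0.16 (quasi-likelihood, TMM, filterByExpr, R 4.3.3) with Benjamini-Hochberg adjustment over all genes tested, 1 fit for each line, and a joint fit of 15 libraries over genes shared after 634 and 914 symbols were updated, for differences between lines. SEs are approximate, from the fold change and its F statistic. All tests are two-sided. The procedure was tested on simulated data, with few genes changed, equally up and down, and the same spread for all genes. That setting differs from these data, where most genes were called, so it does not test the scaling here. The alternatives were DESeq2 1.42.0, other scalings, other filters, a block for the replicate number, and each library left out in turn; scaling by library totals was added after seeing the data.

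The members and all lists were chosen with earlier results of these data known. The text names all 10 members, THBD, in each list and comparison with control the 3 called genes with the largest change among those averaging 5 CPM or more in 1 group, and for CDK2 the 3 genes of nearest pattern with at least 10 CPM in 1 group of each line; the rule also covered CCND2, which is left out for its low counts in Huh7. Most other named genes are marked or stand as markers or overlapping genes. LIN9 in set 1, FOXM1 in set 2, and E2F2 and E2F7 in Huh7 averaged under 5 CPM and were named after their values were seen. Libraries of a group differed by more than counting noise (chi-square per degree of freedom 1.93 to 2.68 in IMR90 and 3.6 to 12.4 in Huh7). Depth is given with the results; with 3 libraries a group, intervals on counts cover counting error only. Promoter sequences are RefSeq's (GRCh38.p14).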

Additional observations from a re-analysis of the deposited data

Results flagged for a closer look

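The change in the shTHBD libraries differed between the lines for most members, by the interaction term of a joint edgeR fit. Set 1 and set 2 share their control libraries, and the libraries labelled set 1 had more THBD than control, against their label, so a difference from set 1 does not compare like with like. Line, senescence inducer and table also differ together and cannot be told apart.

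Against set 1, the log2 effect in Huh7 was lower for CDK2 by −2.60 (edgeR adjusted p = 1.2e-18), for CDK6 by −1.31 (4.4e-18), for CCNE1 by −1.04 (4.7e-06), for CCND1 by −0.66 (9.3e-14) and for CCND3 by −0.58 (4.6e-05). It was higher for CDK4, by 0.70 (edgeR adjusted p = 5.2e-10).

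Against set 2, the effect in Huh7 was higher for CCNE1 by 1.69 (edgeR adjusted p = 6.8e-09), for CCND1 by 0.90 (2.5e-17), for RBL1 by 0.78 (0.0287), for CDK6 by 0.53 (1.7e-07) and for CDK4 by 0.48 (1.4e-06). It was lower for CCND3, by −0.63 (edgeR adjusted p = 1.7e-05), and for CDK2, by −0.40 (0.0334). The RBL1 and CDK2 differences were each lost without any 1 of 5 libraries, with edgeR adjusted p up to 0.0991 and 0.11. For RBL1 these were IMR90 control replicates 1 and 2, set 2 replicate 2, Huh7 control replicate 3 and Huh7 shTHBD replicate 2. For CDK2 they were IMR90 control replicate 2, set 2 replicates 1 and 3, Huh7 control replicate 2 and Huh7 shTHBD replicate 3. The RBL1 call was also lost with library totals (0.70, edgeR adjusted p = 0.0502). That of CDK2 was lost with no filter on low counts (−0.41, edgeR adjusted p = 0.0555).

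For CCND2 the fitted differences, 4.03 against set 1 and 2.63 against set 2, depend on the prior count, since the Huh7 control held 2, 0 and 0 counts and the gene passed the filter in Huh7 only through shTHBD. Without Huh7 control replicate 1, which held the 2 counts, they were 6.58 and 5.18. The lowest values with 1 library left out were 3.51 and 2.11.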

How the results depend on the processing

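The numbers of members and of genes called stayed within 1.5 times their values under all alternatives run. Leaving out 1 library at a time gave 6 to 7 members in set 1, 6 to 7 in set 2, 7 between the sets and 7 to 8 in Huh7, and 591 of 628 fold changes of members kept direction and side of the threshold. Same-numbered libraries did not deviate together (correlations −0.0311 to 0.0625 in IMR90, −0.3 to −0.0833 in Huh7). Differently numbered ones gave −0.0408 to 0.0607 in IMR90 and −0.194 to 0.244 in Huh7. With 3 libraries a group, these values cannot decide whether the numbers pair the libraries. With a replicate block, 6, 7, 7 and 8 members were called, and 8237, 10317, 10675 and 8784 genes in place of 8297, 10372, 10709 and 9280. Directions reversed only among values near 0 that were not called, and the cause was not tested. CCNE2 in set 1 was −0.01 with library totals and −0.01 with the replicate block, and ranged from −0.32 to 0.43 with 1 library left out. CCND3 in set 2 was −0.02 with no filter and ranged from −0.03 to 0.04. RB1 in Huh7 minus set 1 was 0.00 with upper-quartile scaling and 0.01 with library totals, and ranged from −0.11 to 0.01. With 1 library left out, RBL1 in set 1 ranged from −0.15 to 0.07, and CCNE2 from −0.58 to 0.17 between sets, −0.06 to 0.23 in Huh7 and −0.33 to 0.41 in Huh7 minus set 1. Between the sets, the median of all genes moved by −0.10 with upper-quartile scaling and by −0.14 with library totals, and CCND3 was then called (−0.16, edgeR adjusted p = 4.1e-04, and −0.20, 1.4e-05), against −0.06 with TMM. Counts of 6 to 36 per library limit CCNE2.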
